A study of Mus musculus with 21 samples.

Results

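The comparison described here set NM18 cells that had received FoxQ1 siRNA and TGF-b1 against NM18 cells that had received a control siRNA and no TGF-b1. It rests on 6 of the 21 arrays of the series, 3 per group, and the cells were chosen by their titles and treatment labels. It asks which parts of the state that TGF-b1 induces remained when FoxQ1 was lowered and which parts lay at the level of untreated cells. All 9 NM18 arrays were Affymetrix 3'-labelled expression arrays of total RNA, and they held a further group, control siRNA with TGF-b1 (3 arrays), which gives the TGF-b1 state itself. The other 12 arrays were from NMuMG cells at 2 h and are used only once, as an outside readout.

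Every NM18 culture was transfected with 25 nM siRNA and harvested 48 h after transfection. The untreated group carried the scrambled control siRNA alone, the TGF-b1 group carried the control siRNA with TGF-b1 for the last 40 h, and the FoxQ1 siRNA group carried FoxQ1 siRNA with the same TGF-b1 exposure. TGF-b1 was added at 5 ng/ml, 8 h after transfection began. The replicates are described as biological. No group had FoxQ1 siRNA without TGF-b1, so an effect of this siRNA alone cannot be told apart from an effect on the response to TGF-b1, and the labels do not say whether a single siRNA or a pool was used. For array 1 of the untreated group and array 1 of the FoxQ1 siRNA group a free-text note describes TGF-b1 addition for both siRNAs. The treatment protocol given for all NM18 arrays does so too, while the titles and treatment labels of the untreated arrays name none. The titles and labels were followed.

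TGF-b1 is a secreted ligand that signals through paired serine/threonine kinase receptors and Smad transcription factors. In mammary epithelial cells it is known for halting proliferation and for driving epithelial-mesenchymal transition, in which E-cadherin junctions are lost and fibronectin, N-cadherin and stress fibre genes are gained. FoxQ1 is a forkhead transcription factor that has been described as a promoter of this transition.

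All values are log2 expression values per gene, and a difference of 1 on this scale is 2-fold. A value after ± is the standard error of a difference, and ranges after it are 95% intervals. A gene was called when its adjusted p from limma, with Benjamini-Hochberg adjustment over the 12393 genes, was under 0.05. The 9 arrays had medians between 7.36 and 7.42. The first component of all genes held 67.3% of the variance and ran from the untreated arrays through the TGF-b1 arrays to the FoxQ1 siRNA arrays, and the second held 18.7% and set the TGF-b1 arrays apart from the FoxQ1 siRNA arrays. Array 2 of the FoxQ1 siRNA group stood somewhat apart, with the largest 3' minus 5' difference of the actin control probe sets (0.39, against 0.0969 to 0.216 on the other 8 arrays). Array 2 of the untreated group lay closer to the TGF-b1 arrays on the first component (-26.9) than arrays 1 and 3 (-35.7 and -35.3). The part of either array in the results was not tested beyond leaving it out.

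Most markers of other cell types lay low on the scale. None of 9 fibroblast and none of 7 endothelial markers was called in the comparison (37.9% over all genes), and all 16 lay below the array median. Of 7 basal markers only Mylk was called (lower), and of 10 leukocyte markers Cd68 was higher and Cd14 lower (19.3% higher and 18.6% lower over all genes). Mylk and Cd14, at 9.50 and 10.54 in untreated cells, were the basal and leukocyte markers above the array median. Among 10 luminal markers, Krt8, Krt18, Krt19 and Cdh1 stood at 14.3, 14.4, 13.5 and 12.3 in untreated cells, while Epcam, Cldn3, Cldn7, Esrp1 and Grhl2 lay below the array median. The luminal markers summed on the linear scale to 56921 to 61479 in untreated and 51742 to 53964 in FoxQ1 siRNA arrays, the basal markers to 1087 to 1285 and 731 to 804, the leukocyte markers to 2154 to 2407 and 1848 to 1985, the fibroblast markers to 493 to 535 and 501 to 548, and the endothelial markers to 395 to 426 and 405 to 432. Their part in the results was not tested. In these bulk samples fewer cells of a type and less RNA per cell cannot be told apart.

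Foxq1 itself stood at 7.91, 8.49 and 8.38 in untreated cells, at 9.08, 9.04 and 9.33 with TGF-b1, and at 7.57, 8.09 and 7.97 with FoxQ1 siRNA and TGF-b1. The TGF-b1 arrays were the highest and did not overlap either of the other groups, which overlapped each other. Foxq1 was higher by 0.89 ± 0.16 with TGF-b1 than without (adjusted p = 0.00164) and differed by -1.27 ± 0.16 between FoxQ1 siRNA and control siRNA, both with TGF-b1 (adjusted p = 0.000291). Against untreated cells the FoxQ1 siRNA group differed by -0.39 ± 0.16 (adjusted p = 0.0909), which was called only when the replicate number was fitted as a block (adjusted p = 0.0134). These arrays do not measure the FoxQ1 protein.

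The FoxQ1 siRNA group was far from untreated cells. Of the 12393 genes 4695 were called (37.9%), 2392 higher (19.3%) and 2303 lower (18.6%), and 261 of the higher and 430 of the lower genes differed by 2-fold or more. TGF-b1 under control siRNA moved 3807 genes (30.7%), 1642 higher (13.2%) and 2165 lower (17.5%), with 178 and 269 at 2-fold or more. The direct comparison of the siRNAs, both with TGF-b1, called 2425 genes (19.6%), 1399 higher (11.3%) and 1026 lower (8.28%) under FoxQ1 siRNA. These comparisons share arrays in pairs, so their values are set side by side and no overlap is tested. With number 1 left out of every group the counts against untreated cells were 1520 higher and 1524 lower.

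Acta1 showed the largest rise. This gene, which encodes the skeletal muscle form of actin, stood at 7.19, 7.13 and 6.86 in untreated cells, at 8.91, 9.35 and 9.21 with TGF-b1, and at 12.14, 11.73 and 11.94 with FoxQ1 siRNA and TGF-b1. The groups did not overlap, and Acta1 rose by 4.88 ± 0.13 against untreated cells (adjusted p = 9.24e-10). Lce1f, a late cornified envelope gene, followed at 4.40 ± 0.26, the adenylate kinase gene Ak1 at 3.96 ± 0.24, the cytokine gene Il11 at 3.81 ± 0.50, the matrix glycoprotein gene Thbs1 at 3.79 ± 0.29 and the cathepsin gene Ctsw at 3.49 ± 0.43. The dim other probe set of Ak1 was also called higher but gave only 0.65, so the size of the Ak1 rise is uncertain. The rises of the LIM-domain cofactor gene Lmcd1 (3.31), the ubiquitin ligase adaptor gene Spsb1 (3.23), the smooth muscle gene Tagln (2.96), the prostaglandin synthase gene Ptgs2 (2.94) and the heme oxygenase gene Hmox1 (2.75) were also among the 12 largest. Ctse, another cathepsin gene, rose by 2.85 on the probe set used, but its other probe set was called in the opposite direction, so its change is uncertain.

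The largest fall was that of Il33, an epithelial alarmin cytokine. It stood at 12.26, 11.34 and 12.45 in untreated cells and at 7.13, 7.75 and 7.04 with FoxQ1 siRNA and TGF-b1. The groups did not overlap, and Il33 differed by -4.71 ± 0.25 (adjusted p = 1.15e-07). The chemokine gene Ccl20 differed by -4.51 ± 0.27, the locus D17H6S56E-5 by -3.94 ± 0.13 and the endoplasmic reticulum peptidase gene Ermp1 by -3.79 ± 0.15. After these came Ccnb2, Mki67, Birc5, Cep55, Ccna2, Nusap1, Hmgb2 and Kif11, all linked to dividing cells, at -3.75 to -3.22, and the epithelial membrane protein gene Emp1 at -3.22 ± 0.17.

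**Figure D1:**
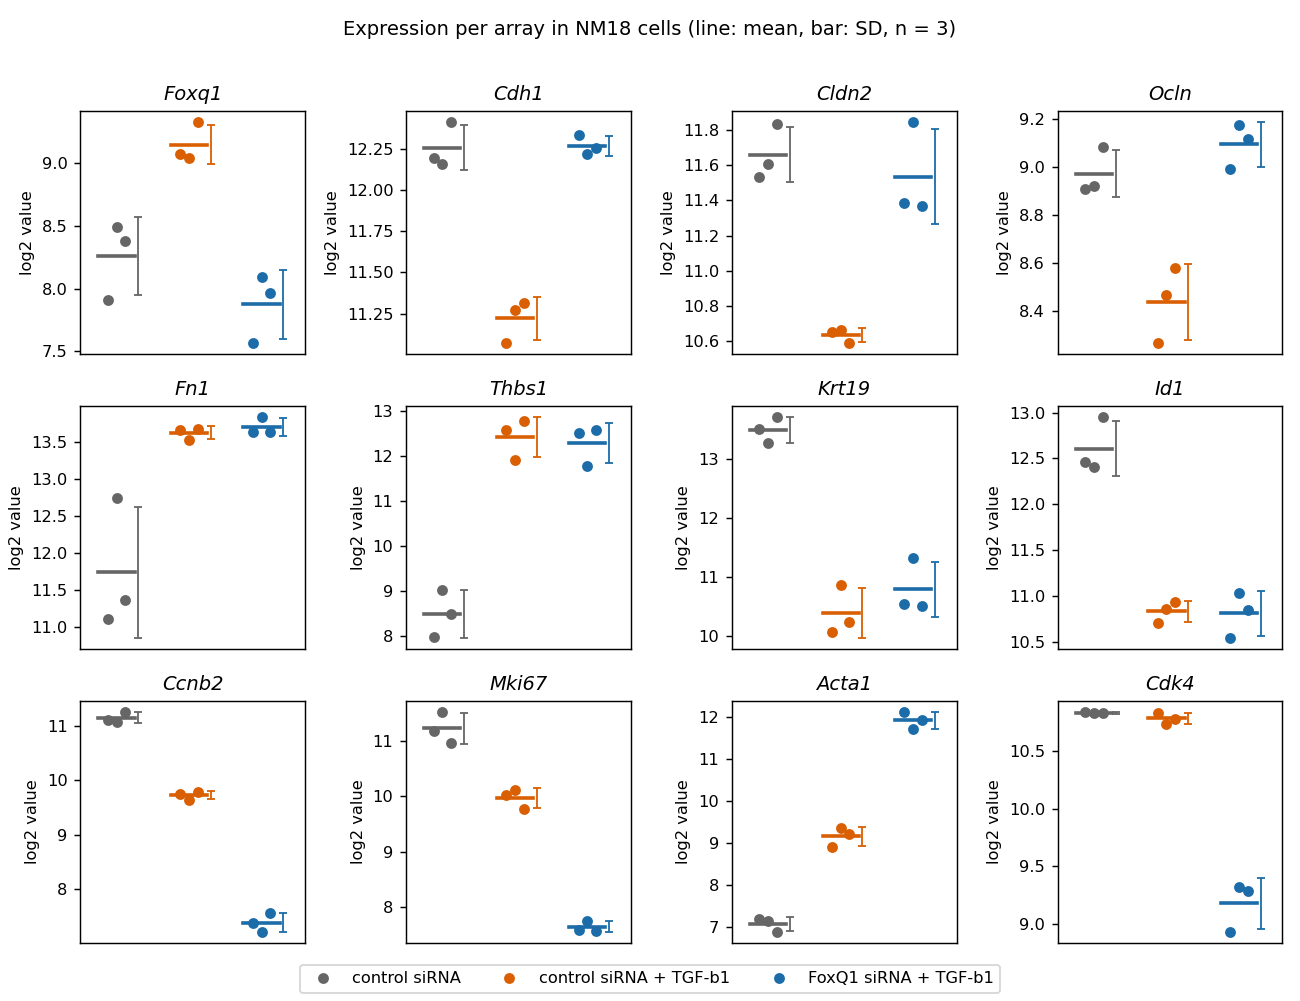
Log2 expression of 12 genes on each of the 9 NM18 arrays, by group, where each point is an array, the horizontal line the group mean and the bar the SD (n = 3), and each panel has its own axis. Cdh1, Cldn2 and Ocln under FoxQ1 siRNA with TGF-b1 lie at the level of untreated cells. Ccnb2, Mki67 and Acta1 in that group lie beyond the TGF-b1 cells. Fn1, Thbs1, Krt19 and Id1 were not called between the siRNAs. Of these, only Id1 has an interval between the siRNAs within 1.5-fold, so the others are not shown to be equal.

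To ask what remained of the TGF-b1 state, the 447 genes that TGF-b1 moved by 2-fold or more under control siRNA (178 that rose and 269 that fell) were sorted by their level under FoxQ1 siRNA. A gene remained when it was called against untreated cells in the same direction and was not called between the siRNAs. It was partly back when it was also called between the siRNAs towards the untreated level. It was at the untreated level when it was called between the siRNAs, was not called against untreated cells and had a 95% interval within 1.5-fold of them. It was further when the siRNA comparison called it away from the untreated level. By this sorting 241 genes (53.9%) remained, 53 were partly back, 8 were at the untreated level, 19 were back with an interval wider than 1.5-fold, 2 were past the untreated level, 117 were further and 7 were unresolved. The line at 2-fold is a sharp one in a smooth range. Itih2 (-1.00076) and Gstm1 (-1.00054) lay just inside it, and Pdlim1 (0.999715) and Blcap (0.998785) just outside.

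Among genes that rose with TGF-b1, 120 remained, 21 were partly back, 1 was at the untreated level, 7 were back with a wider interval and 26 were further. Among genes that fell, the numbers were 121, 32, 7, 12 and 91, and both genes past the untreated level had fallen. The difference between the directions was not tested. Fitting the replicate number as a block called more genes between the siRNAs, 2023 higher and 1497 lower. It gave 205 remained in place of 241, 83 partly back in place of 53 and 135 further in place of 117, and left none unresolved.

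**Figure D2:**
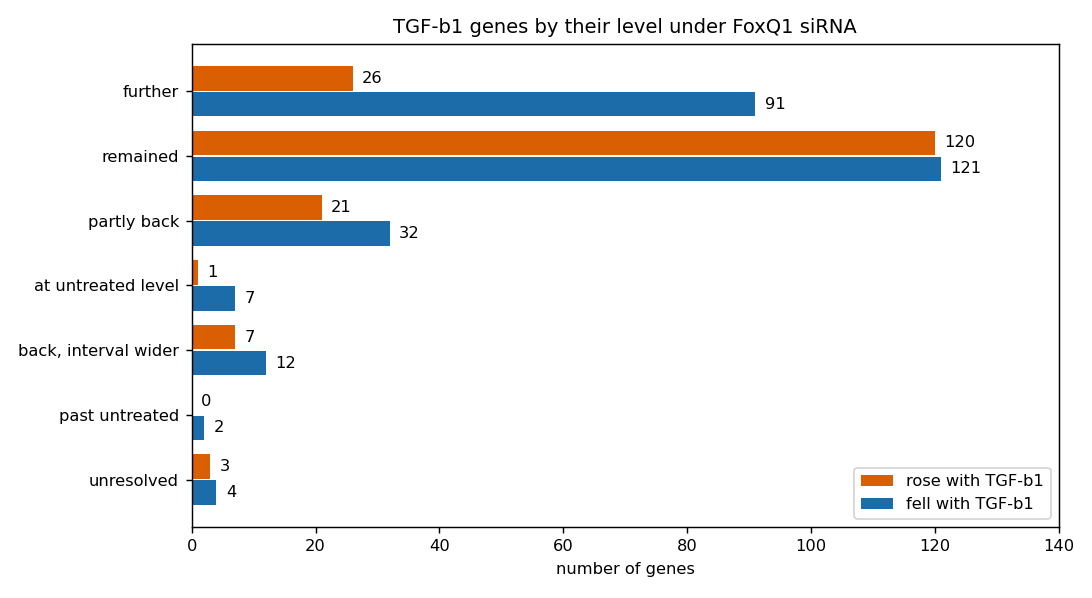
Number of genes moved 2-fold or more by TGF-b1 under control siRNA, by where they stood under FoxQ1 siRNA with TGF-b1 (horizontal axis, genes; orange, genes that rose with TGF-b1; blue, genes that fell). The class that remained is the largest with 120 and 121 genes, and the class that went further holds 26 genes that rose and 91 that fell.

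The genes that remained included matrix, cytokine and signalling genes. Thbs1 stood at 7.98, 9.03 and 8.48 in untreated cells, at 12.57, 11.91 and 12.78 with TGF-b1, and at 12.52, 11.77 and 12.57 when FoxQ1 siRNA was added. Both TGF-b1 groups lay far above the untreated arrays and overlapped each other, and the difference between the siRNAs was -0.13 ± 0.29 (-0.78 to 0.51). Il11 stood at 8.26, 10.48 and 8.28, at 13.04, 12.63 and 13.22, and at 12.89, 12.18 and 13.37 in the same order of groups, with untreated array 2 the highest of its group. Fn1, the gene of fibronectin and a usual marker of the transition, stood at 11.10, 12.75 and 11.36 in untreated cells, at 13.67, 13.53 and 13.68 with TGF-b1, and at 13.64, 13.84 and 13.63 with FoxQ1 siRNA and TGF-b1. It rose by 1.96 ± 0.32 against untreated cells (adjusted p = 0.000441), and the siRNAs differed by 0.08 ± 0.32 (-0.62 to 0.77).

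Several repressed genes also remained low. Krt19, a simple epithelial keratin, stood at 13.51, 13.27 and 13.71 in untreated cells, at 10.06, 10.86 and 10.24 with TGF-b1, and at 10.53, 11.32 and 10.51 with FoxQ1 siRNA and TGF-b1. It differed by -2.71 ± 0.24 from untreated cells (adjusted p = 4.61e-06), with 0.40 ± 0.24 between the siRNAs (-0.12 to 0.92). Id1, an inhibitor of basic helix-loop-helix factors, stood at 12.46, 12.41 and 12.95, at 10.71, 10.86 and 10.94, and at 10.55, 11.04 and 10.85 in the same order, and its difference between the siRNAs was -0.02 ± 0.15 (-0.35 to 0.31). Il33 showed 0.07 ± 0.25 between the siRNAs (-0.49 to 0.63). The glucuronosyltransferase gene Ugt2b34 and the galectin gene Lgals4 remained as well (-2.43 ± 0.59 and -2.60 ± 0.49 against untreated cells), but array 2 of the FoxQ1 siRNA group was highest for both (9.65 and 8.64, against 6.93 to 7.15 and 6.76 to 6.98 on the other arrays of that group). Neither fall was called with number 1 left out of every group (adjusted p = 0.0904 and 0.0565).

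A gene that was not called between the siRNAs is not shown to be equal under them. Of the 241 genes that remained, 142 (58.9%) had a 95% interval between the siRNAs that lay within 1.5-fold, and for the other 99 it was wider. Ctsw is one of the latter: it stood at 11.77, 10.96 and 12.06 with TGF-b1 and at 10.62, 9.29 and 11.18 with FoxQ1 siRNA and TGF-b1, a difference of -1.23 ± 0.43 (adjusted p = 0.0691). With the replicate block that difference was called (adjusted p = 0.0423), which made Ctsw partly back.

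The 53 genes that were partly back kept between 25.4% and 76.5% of their log2 TGF-b1 difference, with a median of 55.9%. This range follows in part from the sorting, which needs a call both against untreated cells and between the siRNAs. Genes that kept almost all or almost none of the difference could not enter. The same TGF-b1 arrays also chose the genes, so the range describes the class and does not estimate a degree of return. The neutrophil chemokine gene Cxcl5 stood at 12.43, 12.06 and 12.40 in untreated cells, at 8.47, 8.26 and 7.66 with TGF-b1, and at 9.06, 9.86 and 8.58 with FoxQ1 siRNA and TGF-b1. The groups did not overlap, and the FoxQ1 siRNA group lay 1.03 ± 0.28 above the TGF-b1 group (adjusted p = 0.024) and still far below untreated cells (log2 difference -3.13 ± 0.28). Id2, from the same family as Id1, stood at 12.76, 12.57 and 12.90, at 10.03, 10.36 and 10.14, and at 10.63, 11.39 and 10.86, and differed between the siRNAs by 0.78 ± 0.17 (adjusted p = 0.00677). Lgals2, Sec16b and Rbp4, which serve sugar binding, transport from the endoplasmic reticulum and retinol transport, were also still lower than in untreated cells, by -1.53 ± 0.32, -1.72 ± 0.21 and -1.41 ± 0.31. For Lgals2 and Rbp4 array 2 of the FoxQ1 siRNA group was the highest of its group (12.52 and 12.43), and neither fall was called with number 1 left out of every group (adjusted p = 0.0711 and 0.0786). Rbp4 kept its place in only 7 of 17 settings and counted as remained in 9, among them without array 2 of the FoxQ1 siRNA group, any array of the untreated group, or array 1 or 3 of the TGF-b1 group. Cxcl5 kept its place in 13, and counted as remained without array 1 or 2 of the FoxQ1 siRNA group, without array 3 of the TGF-b1 group and with number 1 left out of every group.

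On the induced side, Plod2, a lysyl hydroxylase that prepares collagen for cross-linking, stood at 8.97, 9.44 and 9.27 in untreated cells, at 11.53, 11.17 and 11.72 with TGF-b1, and at 10.51, 10.01 and 10.88 with FoxQ1 siRNA and TGF-b1. It differed by -1.01 ± 0.20 between the siRNAs (adjusted p = 0.00503) and higher by 1.24 ± 0.20 than in untreated cells. The Wnt ligand gene Wnt7a kept a rise of 2.03 ± 0.16 out of 2.66 ± 0.16, and the protease inhibitor gene Ctla2b a rise of 1.16 ± 0.24 out of 2.26 ± 0.24. Wnt7a counted as remained when any array of the TGF-b1 group was left out. The rise of Ctla2b against untreated cells was not called with number 1 left out of every group (adjusted p = 0.0787).

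The 8 genes at the untreated level were Cdh1, Cldn2, Hhex, Map3k5, Grb14, Reep6 and Bdh1, which had fallen with TGF-b1, and Litaf, which had risen. Cdh1 encodes E-cadherin, the adhesion receptor of epithelial junctions. It stood at 12.20, 12.16 and 12.42 in untreated cells, at 11.07, 11.27 and 11.32 with TGF-b1, and at 12.34, 12.22 and 12.26 with FoxQ1 siRNA and TGF-b1. The FoxQ1 siRNA arrays lay within the range of the untreated arrays, and both groups lay above the TGF-b1 arrays without overlap. The difference from untreated cells was 0.01 ± 0.09 (-0.18 to 0.20), against -1.04 ± 0.09 for TGF-b1 alone (adjusted p = 1.04e-05) and 1.05 ± 0.09 between the siRNAs (adjusted p = 1.3e-05).

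Cldn2 encodes claudin-2, a channel-forming protein of tight junctions. It stood at 11.54, 11.61 and 11.84 in untreated cells, at 10.65, 10.66 and 10.59 with TGF-b1, and at 11.39, 11.85 and 11.37 with FoxQ1 siRNA and TGF-b1, and its difference from untreated cells was -0.13 ± 0.12 (-0.39 to 0.14). It was higher by 0.90 ± 0.12 under FoxQ1 siRNA than under control siRNA (adjusted p = 0.000404). Its promoter is shown because Cldn2 is one of the junction genes that lay at the untreated level. The bases are the 250 before the start of the RefSeq gene on GRCm38.p6, chrX:139800558-139800807, plus strand, with the only match to the forkhead core TGTTTA in capitals.

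Cldn2: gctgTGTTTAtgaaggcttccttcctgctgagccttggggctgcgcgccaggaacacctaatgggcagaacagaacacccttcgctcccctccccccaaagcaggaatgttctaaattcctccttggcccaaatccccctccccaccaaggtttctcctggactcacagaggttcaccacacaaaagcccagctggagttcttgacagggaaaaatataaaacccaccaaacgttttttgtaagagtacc

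For the 7 genes that fell with TGF-b1 and were at the untreated level, only 5 promoters were available. TGTTTA, searched on both strands, was found in 1 of these 5 and in 8.83% of the 9887 promoters available for all genes tested. The E-box CACCTG, searched in the same way and known as the core that Zeb and Snail factors bind, was in 0 of these 5 and in 16.1% of all tested. Other genes that fell held TGTTTA too, in 14 of 91 that remained (15.4%) and 4 of 25 partly back (16%). It was in 2 of 11 back with a wider interval (18.2%) and 7 of 75 that went further (9.33%). These letters describe the windows and show no binding. Genes without an available promoter, and bases outside the 250, were not searched for either motif.

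The homeobox gene Hhex stood at 11.06, 11.41 and 11.49 in untreated cells, at 9.93, 10.15 and 9.87 with TGF-b1, and at 10.95, 11.18 and 10.96 with FoxQ1 siRNA and TGF-b1. Its difference from untreated cells was -0.29 ± 0.12 (adjusted p = 0.0815), and with the replicate block it was called (adjusted p = 0.0234), as was that of the stress kinase gene Map3k5 (-0.28 ± 0.11, adjusted p = 0.0808, or 0.0262 with the block). Both would then count as partly back, as they did without array 2 of the FoxQ1 siRNA group, and Hhex also without array 1 of the untreated group. Grb14, an adaptor of the insulin receptor, and Reep6, an endoplasmic reticulum protein gene, differed from untreated cells by 0.03 ± 0.15 and -0.13 ± 0.12. Bdh1, a gene of ketone body metabolism, differed by 0.10 ± 0.19 and kept its place in only 8 of 16 alternative settings. Litaf, a gene of the endosome, stood at 11.24, 11.37 and 11.36, at 12.43, 12.36 and 12.43, and at 11.11, 11.12 and 11.42, and was the 1 induced gene at the untreated level (-0.11 ± 0.09, with -1.19 ± 0.09 between the siRNAs). Cdh1 kept its place in 14 of 17 settings and was not among the 2-fold TGF-b1 genes in the other 3 (without untreated array 3, without TGF-b1 array 1, and with number 1 left out of every group). Cldn2 kept its place in 13 of 17. It was not among those genes in 3 (without untreated array 3, with median centring and with probe sets averaged), and without array 2 of the FoxQ1 siRNA group, the highest of that group, it counted as partly back.

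A further 19 genes were called between the siRNAs, were not called against untreated cells and had a wider interval. Hnf4a, a nuclear receptor of endodermal epithelia, stood at 11.18, 11.31 and 11.30 in untreated cells, at 9.50, 10.28 and 9.70 with TGF-b1, and at 10.63, 11.28 and 10.62 with FoxQ1 siRNA and TGF-b1. Its array 2 was again the highest of the FoxQ1 siRNA group, and its difference from untreated cells was -0.42 ± 0.20 (-0.86 to 0.02). Serum protein and detoxification genes in this class showed the same array: Hpx (hemopexin) stood at 9.25, 10.46 and 8.94 under FoxQ1 siRNA, Apoc2 (an apolipoprotein) at 7.83, 8.88 and 7.06, Serpina1b (a serine protease inhibitor) at 7.79, 9.18 and 7.04, and Aldh1a7 (an aldehyde dehydrogenase) at 7.71, 8.94 and 7.23. Array 2 was also the highest of the TGF-b1 group for these genes (8.77, 6.70, 6.67 and 6.90). Leaving out array 2 of the FoxQ1 siRNA group left 6 genes in this class, and leaving out array 3 of that group gave 30. With the replicate block Aldh1a7 and the selenoprotein gene Selenop were called against untreated cells (adjusted p = 0.0334 and 0.00218) and would count as partly back.

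Among induced genes, the stress gene Gadd45b stood at 10.45, 10.48 and 9.96 in untreated cells, at 11.92, 11.66 and 11.80 with TGF-b1, and at 10.71, 10.32 and 10.83 with FoxQ1 siRNA and TGF-b1 (0.32 ± 0.15 against untreated cells, -0.02 to 0.67). The growth factor gene Csf1, which supports macrophages, stood at 10.24, 10.46 and 10.15, at 11.50, 11.39 and 11.16, and at 10.20, 9.54 and 10.11 on the probe set used. Its other probe sets were called below untreated cells (-0.193, -0.320 and -0.455, adjusted p = 0.0442, 0.0354 and 0.0311), so its place is uncertain. The immediate early gene Egr1 (0.04 ± 0.46) and the cornified envelope gene Sprr1a (0.03 ± 0.31) had averages near the untreated level with intervals of -0.98 to 1.06 and -0.65 to 0.72.

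The 2 genes past the untreated level were Ephx1, an epoxide hydrolase gene, and Cdh17, the gene of liver-intestine cadherin. Cdh17 stood at 9.56, 9.20 and 9.77 in untreated cells, at 8.60, 8.23 and 8.65 with TGF-b1, and at 10.29, 10.23 and 10.22 with FoxQ1 siRNA and TGF-b1, higher than untreated cells by 0.74 ± 0.14 (adjusted p = 0.00129). Ephx1 stood at 9.79, 10.25 and 10.37, at 8.69, 9.58 and 8.57, and at 11.22, 11.82 and 11.02, higher by 1.22 ± 0.27 (adjusted p = 0.0035, or 0.0567 with number 1 left out of every group). Cdh17 kept its place in 12 of 17 settings and was not among the 2-fold TGF-b1 genes in the others. These were quantile normalization, median centring, and leaving out untreated array 1, untreated array 3 or TGF-b1 array 2. The 7 unresolved genes were Col5a3, Cyp2c68, Denn2b, Gsta2, Itih2, Tns1 and Txnip, and with the replicate block none remained unresolved.

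The 117 genes that went further were dominated in number by genes that fell (91 of them). Cell cycle genes held 11 of these. Of the 29 measured cell cycle genes 28 were lower than in untreated cells and none was higher (18.6% and 19.3% over all genes), with a median of -2.54, beside a median near 0 (-0.0023) over all genes tested. Under TGF-b1 alone 27 of the 29 were lower (17.5% over all genes), with a median of -0.94. Between the siRNAs 26 were lower under FoxQ1 siRNA (8.28% over all genes), with a median of -1.49. Summed on the linear scale, the 29 genes came to 68682 to 76271 on untreated, 38704 to 44324 on TGF-b1 and 17442 to 22268 on FoxQ1 siRNA arrays.

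Ccnb2, the gene of cyclin B2, stood at 11.11, 11.07 and 11.26 in untreated cells, at 9.75, 9.64 and 9.78 with TGF-b1, and at 7.38, 7.22 and 7.57 with FoxQ1 siRNA and TGF-b1. The 3 groups did not overlap, and Ccnb2 differed by -3.75 ± 0.09 from untreated cells (adjusted p = 7.73e-10) and by -2.33 ± 0.09 between the siRNAs (adjusted p = 1.72e-07). Mki67, the gene of the proliferation antigen Ki-67, stood at 11.19, 11.53 and 10.97, at 10.03, 10.11 and 9.77, and at 7.59, 7.75 and 7.57, the same order of groups. Birc5 (survivin, of the chromosomal passenger complex) differed from untreated cells by -3.57 ± 0.09, Ccna2 (cyclin A2) by -3.31 ± 0.07, Top2a (topoisomerase II) by -3.08, Cdk1 (the mitotic kinase) by -2.54, and Aurka (an aurora kinase of the spindle pole) by -2.44 ± 0.07.

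Replication genes were lower too. The helicase genes Mcm5 and Mcm2 differed from untreated cells by -2.31 and -1.29, the ends of the range of the 6 Mcm genes on the list, and Pcna, the sliding clamp, by -1.02. Ccnd1, the gene of cyclin D1, differed by -0.93. Ccne1 (cyclin E1) was the 1 gene of the list that was not called, at -0.21 ± 0.15 (-0.54 to 0.11). Foxm1, a forkhead activator of mitotic genes, differed by -0.73 ± 0.09 (adjusted p = 4.58e-05), and of its other 3 probe sets 2 were called lower (-0.82 and -1.42) and the dimmest was not (0.09).

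**Figure D3:**
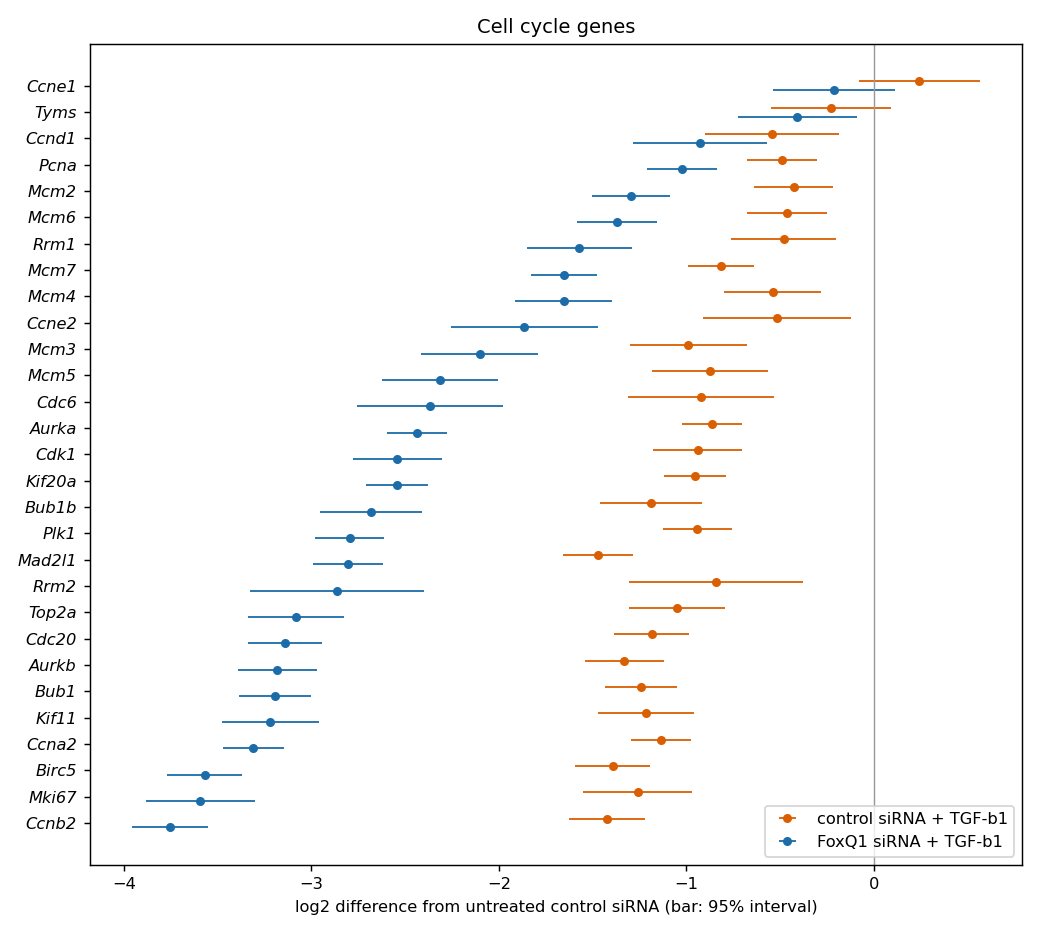
Difference from untreated control siRNA cells (horizontal axis, log2) for the 29 measured cell cycle genes, with control siRNA and TGF-b1 in orange and FoxQ1 siRNA and TGF-b1 in blue; points are estimates over 3 arrays a group and bars 95% intervals. For Ccnb2 the 2 estimates are -1.42 and -3.75, and at the top Ccne1 has intervals that include 0 in both.

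The promoters of Ccnb2 and Aurka are shown because cell cycle genes moved together. The capitals mark CCAAT, the core that NF-Y binds, and, for Ccnb2, a match to TTTGAA, letters known from the cell cycle genes homology region. This match comes before all CCAAT matches of the Ccnb2 window, and whether it is such a region was not tested. Both motifs were searched on both strands and overlap nowhere in these windows. The windows are the 250 bases before the RefSeq start on GRCm38.p6, chr9:70421555-70421804 (minus strand) for Ccnb2 and chr2:172370571-172370820 (minus strand) for Aurka, printed 5′ to 3′ on the gene's strand.

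Ccnb2: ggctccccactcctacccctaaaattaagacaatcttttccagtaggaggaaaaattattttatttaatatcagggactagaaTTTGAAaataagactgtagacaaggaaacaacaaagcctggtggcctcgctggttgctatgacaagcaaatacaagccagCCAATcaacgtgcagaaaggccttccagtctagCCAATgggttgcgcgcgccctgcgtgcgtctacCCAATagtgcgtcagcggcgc

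Aurka: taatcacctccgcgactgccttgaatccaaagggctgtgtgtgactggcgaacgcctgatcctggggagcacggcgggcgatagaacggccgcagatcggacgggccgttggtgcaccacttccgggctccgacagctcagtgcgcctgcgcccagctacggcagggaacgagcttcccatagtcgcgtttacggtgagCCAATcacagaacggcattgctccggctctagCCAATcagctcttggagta

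CCAAT was found in 18 of the 23 promoters available for the cell cycle list (78.3%), in 40 of 75 for the genes that fell further (53.3%) and in 35.8% of the 9887 available for all genes tested. TTTGAA was found in 7 of the 23 (30.4%), in 18 of the 75 (24%) and in 11.6% of all tested. Other genes that fell held CCAAT as well, in 43 of 91 that remained (47.3%), 8 of 25 partly back (32%) and 6 of 11 back with a wider interval (54.5%). TTTGAA was in 15 of those 91 (16.5%), 2 of the 25 (8%) and 1 of the 11 (9.09%). The 75 genes include cell cycle genes. A match describes the letters in a window and no binding was measured.

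Of 7 cyclin-dependent kinase inhibitor genes measured, none was called higher and 2 were lower (19.3% and 18.6% over all genes). The lower ones were Cdkn2c and Cdkn2d, the genes of p18 and p19 (-1.52 for both). Cdkn2c stood at 8.84, 8.68 and 8.63 in untreated cells, at 7.74, 7.57 and 7.57 with TGF-b1, and at 7.21, 7.10 and 7.30 with FoxQ1 siRNA and TGF-b1. Cdkn2b, the gene of p15 and a known TGF-b1 target, stood at 10.02, 10.15 and 10.71 in untreated and at 10.74, 10.69 and 10.92 in FoxQ1 siRNA cells, a difference of 0.49 ± 0.18 (adjusted p = 0.0591) that was called with the replicate block (adjusted p = 0.00515). Cdkn2a (0.37) was likewise called only with the block (adjusted p = 0.00241), and Cdkn1a differed by -0.04.

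The induced genes that went further were led by Acta1, which differed by 2.78 ± 0.13 between the siRNAs (adjusted p = 2.52e-07). Tagln stood at 6.82, 7.10 and 6.62 in untreated cells, at 8.89, 9.19 and 8.97 with TGF-b1, and at 9.95, 9.56 and 9.93 with FoxQ1 siRNA and TGF-b1, a difference of 0.80 ± 0.13 between the siRNAs (adjusted p = 0.00179). The tight junction gene Cldn4 stood at 6.37, 6.36 and 6.02, at 8.27, 7.64 and 8.41, and at 9.01, 8.42 and 8.99, so this claudin rose with TGF-b1 and was higher still under FoxQ1 siRNA (0.70 ± 0.20, adjusted p = 0.0327). Hmox1 (0.75 ± 0.22, adjusted p = 0.0329) and Spsb1 (0.59 ± 0.15, adjusted p = 0.0151) differed between the siRNAs in the same direction. Spsb1 counted as remained without array 1 or 2 of the TGF-b1 group, without array 3 of the FoxQ1 siRNA group and with number 1 left out of every group. Cldn4 did so in the same settings and also without array 1 of the FoxQ1 siRNA group. Ccl20, Ermp1 and Emp1 were lower still under FoxQ1 siRNA, by -0.90 ± 0.27, -0.69 ± 0.15 and -0.87 ± 0.17. Ccl20 and Hmox1 kept this place in 10 and 11 of 17 settings and otherwise counted as remained, in both without array 1 or 3 of the TGF-b1 group, without array 1 or 2 of the FoxQ1 siRNA group and with number 1 left out of every group. Ccl20 did so also without array 1 of the untreated group or array 3 of the FoxQ1 siRNA group, and Hmox1 with quantile normalization.

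A last group of genes lay outside the TGF-b1 state. They were called in one direction both against untreated cells and between the siRNAs, while TGF-b1 alone was not called and its 95% interval lay within 1.5-fold. There were 586 higher and 332 lower, most of them small in size, with medians of 0.42 and -0.49 and 11 and 23 at 2-fold or more. Cdk4, the kinase that acts with D-type cyclins, stood at 10.84, 10.83 and 10.83 in untreated cells, at 10.83, 10.74 and 10.78 with TGF-b1, and at 8.92, 9.32 and 9.29 with FoxQ1 siRNA and TGF-b1. It differed by -1.65 ± 0.09 from untreated cells (adjusted p = 1.84e-07), and TGF-b1 alone by -0.05 ± 0.09 (-0.26 to 0.16).

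The muscle-type cofilin gene Cfl2 showed the same order, at 10.54, 10.66 and 10.73, at 10.64, 10.86 and 10.77, and at 8.89, 9.11 and 9.19 (-1.58 ± 0.09 against untreated cells). Apip, a gene of methionine salvage, Septin10, a septin gene, and Cdv3 were lower by -1.56 ± 0.13, -1.36 ± 0.11 and -1.34 ± 0.08, and Cdv3 left this group when the replicate block was fitted. Among higher genes, the zinc finger gene Egr2 stood at 5.67, 5.98 and 6.18, at 6.14, 6.04 and 6.11, and at 7.59, 8.0 and 7.57 (1.78 ± 0.14), and the intestinal-type keratin gene Krt20 at 11.23, 11.31 and 11.52, at 11.42, 11.72 and 11.65, and at 12.40, 12.92 and 12.50 (1.01 ± 0.13 between the siRNAs). Fam102a was higher by 1.43 ± 0.12. With no FoxQ1 siRNA group without TGF-b1, changes that need TGF-b1 cannot be told apart here from changes that do not.

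By role, the junction and polarity genes come first. Of 30 measured junction and polarity genes, TGF-b1 alone lowered 14 and raised 5, FoxQ1 siRNA raised 10 and lowered none relative to control siRNA with TGF-b1, and against untreated cells 7 were higher and 4 lower under FoxQ1 siRNA, with a median of 0.00. Over all genes the shares were 17.5% lower and 13.2% higher with TGF-b1 alone, 11.3% higher and 8.28% lower between the siRNAs, and 19.3% higher and 18.6% lower against untreated cells. Occludin, a transmembrane protein of tight junctions, is encoded by Ocln, which stood at 8.91, 8.92 and 9.09 in untreated cells, at 8.27, 8.47 and 8.58 with TGF-b1, and at 8.99, 9.17 and 9.12 with FoxQ1 siRNA and TGF-b1. It differed from untreated cells by 0.12 ± 0.09 (-0.07 to 0.32) and between the siRNAs by 0.66 ± 0.09 (adjusted p = 0.000432). The tricellulin gene Marveld2 (0.44 ± 0.09 between the siRNAs, -0.02 ± 0.09 against untreated cells) and the apical polarity gene Crb3 (0.48 ± 0.12 and 0.07 ± 0.12) followed the same order.

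Not all junction genes did. Tjp1, the gene of the scaffold ZO-1, stood at 11.49, 11.41 and 11.55 in untreated cells, at 10.95, 11.13 and 10.97 with TGF-b1, and at 10.85, 10.93 and 10.83 with FoxQ1 siRNA and TGF-b1, and stayed lower (-0.61 ± 0.07, adjusted p = 3.38e-05). The polarity gene Llgl2 also stayed lower (-0.67 ± 0.10). Above the untreated level were Cldn4 (2.56 ± 0.20), the p120-catenin gene Ctnnd1 (1.30 ± 0.15) and Epcam (0.51 ± 0.13, at 6.10, 6.11 and 6.05 in untreated and 6.52, 6.97 and 6.29 in FoxQ1 siRNA cells, not called with number 1 left out of every group, adjusted p = 0.083).

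**Figure D4:**
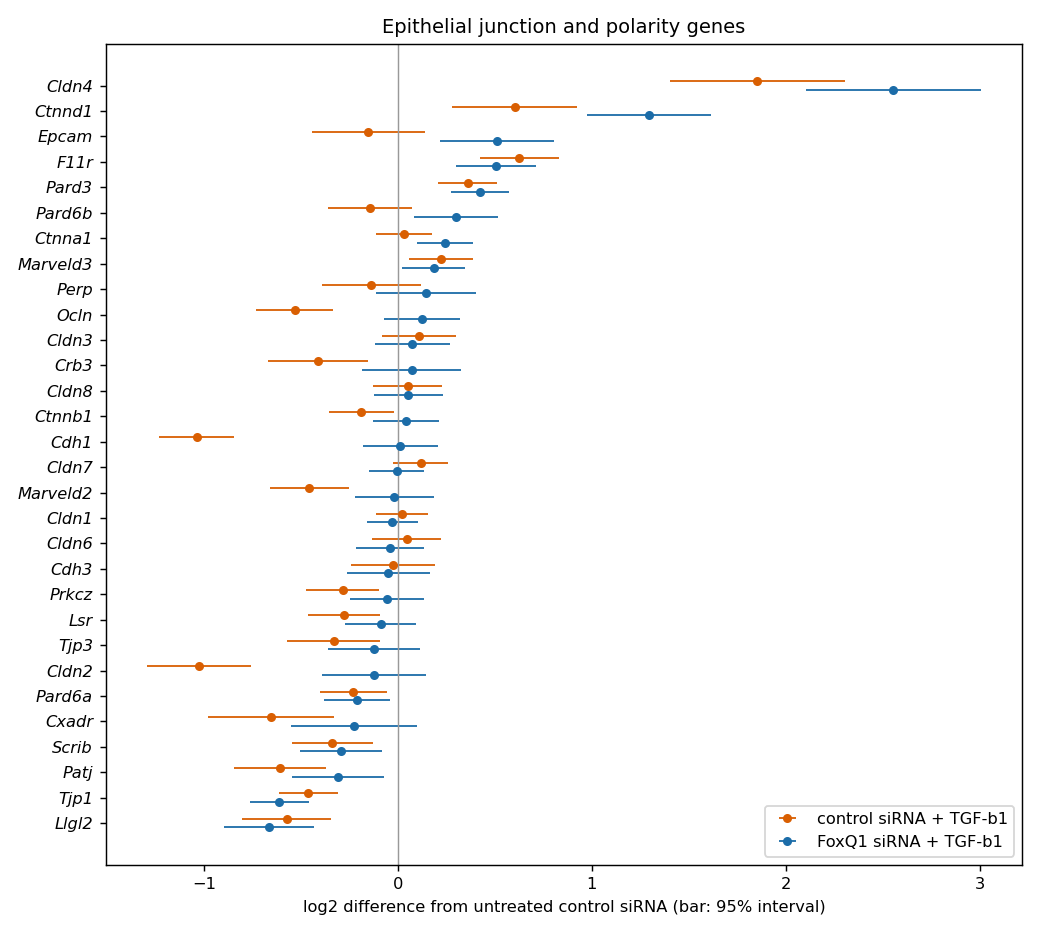
Difference from untreated control siRNA cells (horizontal axis, log2) for the 30 measured epithelial junction and polarity genes, with control siRNA and TGF-b1 in orange and FoxQ1 siRNA and TGF-b1 in blue; points are estimates over 3 arrays a group and bars 95% intervals. Cdh1 (-1.04 and 0.01) and Cldn2 (-1.03 and -0.13) lie near 0 only under FoxQ1 siRNA, while Tjp1 (-0.46 and -0.61) and Llgl2 (-0.58 and -0.67) lie below 0 in both.

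Of 21 regulators of epithelial identity 2 were higher and 5 lower than in untreated cells (19.3% and 18.6% over all genes), with a median of -0.01. The Ets factor gene Ehf (-1.35), the Krüppel-like factor genes Klf4 (-1.45) and Klf5 (-0.88), the forkhead gene Foxa2 (-1.11) and the intestinal homeobox gene Cdx2 (-1.12) were lower. Elf3 and the splicing regulator gene Esrp2 were higher (0.53 and 0.54), although the dim other probe set of Esrp2 was not called. Klf4 stood at 9.33, 9.45 and 9.76 in untreated cells, at 9.09, 9.38 and 9.06 with TGF-b1, and at 8.0, 8.16 and 8.02 with FoxQ1 siRNA and TGF-b1. Spint2, a protease inhibitor gene, differed by -0.05 ± 0.09 from untreated cells and by 0.67 ± 0.09 between the siRNAs.

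Of 16 desmosome and keratin genes 5 were higher and 3 lower (19.3% and 18.6% over all genes). Jup, the gene of plakoglobin, was higher (1.21 ± 0.11) and the periplakin gene Ppl lower (-1.68 ± 0.09), both more so than with TGF-b1 alone (0.59 and -1.20, with differences between the siRNAs of 0.63 ± 0.11 and -0.49 ± 0.09). Krt8 and Krt18, the keratins of simple epithelia, differed from untreated cells by 0.06 ± 0.07 and 0.12 ± 0.08, and neither was called.

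Of 19 transcription factors known for driving the transition 6 were higher and 3 lower than in untreated cells (19.3% and 18.6% over all genes), with a median of 0.08. Hmga2, the gene of a chromatin protein, stood at 11.55, 11.22 and 11.09 in untreated cells, at 12.09, 11.78 and 11.82 with TGF-b1, and at 12.59, 12.30 and 12.48 with FoxQ1 siRNA and TGF-b1, and was the largest rise of the list (1.17 ± 0.13, adjusted p = 2.21e-05), and Ets2 was lower, at 11.47, 11.64 and 11.63 in untreated and 10.44, 10.67 and 10.64 in FoxQ1 siRNA cells. Ets1 stood at 10.47, 10.73 and 10.52, at 11.16, 11.07 and 11.27, and at 9.77, 9.57 and 10.06, so it rose with TGF-b1 and lay below the untreated level under FoxQ1 siRNA (-0.78 ± 0.12). A second bright probe set gave -0.77 and its 2 dim ones were not called against untreated cells. Snai1 and Snai2 differed by 0.05 ± 0.08 and 0.11 ± 0.09, at levels below the array median.

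Zeb1, a repressor of E-cadherin, stood at 8.81, 9.29 and 8.83 in untreated cells, at 9.89, 9.85 and 9.94 with TGF-b1, and at 9.21, 9.36 and 9.51 with FoxQ1 siRNA and TGF-b1. It was higher by 0.38 ± 0.12 than in untreated cells (adjusted p = 0.0292) and lower by -0.53 ± 0.12 than with control siRNA (adjusted p = 0.00955). The call against untreated cells was lost when only those 2 groups were fitted (adjusted p = 0.0573), with the mean of its probe sets (0.0634), with number 1 left out of every group (0.129), without array 1 or 3 of the untreated group (0.12 and 0.111) and without array 2 or 3 of the FoxQ1 siRNA group (0.0568 and 0.113). Zeb2 was higher by 0.67 ± 0.24 (adjusted p = 0.0471), and this call was lost in 10 settings, with adjusted p from 0.0515 to 0.285, among them without array 1 or 3 of the untreated group (0.114 and 0.173), of the FoxQ1 siRNA group (0.197 and 0.101), and without array 2 or 3 of the TGF-b1 group.

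Of 30 mesenchymal adhesion and cytoskeleton genes 20 were higher and 1 lower than in untreated cells (19.3% and 18.6% over all genes), with a median of 0.54. TGF-b1 alone gave 20 higher and 2 lower (13.2% and 17.5% over all genes), with a median of 0.63. Between the siRNAs 4 were higher and 1 was lower under FoxQ1 siRNA, beside 11.3% and 8.28% over all genes. Cdh2, the gene of N-cadherin, stood at 10.68, 10.92 and 10.74 in untreated cells, at 11.58, 11.47 and 11.58 with TGF-b1, and at 11.64, 11.33 and 11.58 with FoxQ1 siRNA and TGF-b1 (0.74 ± 0.09 against untreated cells, -0.03 ± 0.09 between the siRNAs). So the FoxQ1 siRNA group had Cdh1 at the untreated level and Cdh2 at the TGF-b1 level. The focal adhesion gene Zyx (1.68), the adhesion molecule gene Ncam1 (1.60), the calponin gene Cnn2 (1.60) and the LIM protein gene Csrp1 (1.62) were higher by similar amounts. Acta2, the smooth muscle actin gene, rose by 1.63 ± 0.17 on the probe set used, and its dim other probe set gave 0.01. Vim, the vimentin gene, had group means of 13.77 to 13.86 and was not called (0.09 ± 0.05). S100a4 was the 1 lower member (-1.54 ± 0.19).

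Of 37 extracellular matrix genes 13 were higher and 1 was lower (19.3% and 18.6% over all genes), with a median of 0.12 against 0.22 with TGF-b1 alone. Beside Thbs1 and Fn1 these included the collagen genes Col5a1 (2.40 ± 0.28), Col4a1 (0.91), Col4a2 (0.95) and Col1a1 (0.72 ± 0.12), the last at 5.99, 5.99 and 6.10 in untreated cells and 6.80, 6.59 and 6.87 under FoxQ1 siRNA, and the fibulin gene Fbln2 (1.53). Dimmer probe sets of Col5a1 gave 1.16 (called) and 0.16 (not called), so the size of its rise is uncertain. Between the siRNAs 5 matrix genes were lower under FoxQ1 siRNA and 1 was higher (8.28% and 11.3% over all genes), with Plod2 the largest difference on this list. Of 19 proteases and inhibitors 7 were higher and none was lower (19.3% and 18.6% over all genes), among them the membrane protease gene Mmp14 (1.28) and the plasminogen activator gene Plat (0.61), which was not called with TGF-b1 alone (-0.04).

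Of 18 laminin and integrin genes 7 were higher and 4 lower (19.3% and 18.6% over all genes). Itga5, the fibronectin receptor subunit gene, rose by 1.96 ± 0.09 and Itgb5 by 1.48, each above its TGF-b1 level (between the siRNAs 0.56 ± 0.09 and 0.40). With number 1 left out of every group both counted as remained. Itgb5 did so also without array 1 or 2 of the TGF-b1 group or array 3 of the FoxQ1 siRNA group. Lamc1, a laminin chain gene, stood at 9.99, 10.09 and 10.03 in untreated cells, at 9.52, 9.82 and 9.65 with TGF-b1, and at 7.88, 8.54 and 8.22 with FoxQ1 siRNA and TGF-b1 (-1.82 ± 0.14, adjusted p = 1.56e-06). Itgb6, an integrin subunit gene of epithelia, stood at 8.56, 8.68 and 8.35, at 8.77, 8.93 and 8.50, and at 7.67, 7.29 and 7.60 (-1.01 ± 0.13).

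The TGF-b pathway list holds ligands, receptors and feedback inhibitors. Of 32 measured, 16 were higher and 6 lower than in untreated cells (19.3% and 18.6% over all genes), with a median of 0.27. Between the siRNAs 7 were higher under FoxQ1 siRNA and none was lower (11.3% and 8.28% over all genes). Among ligands, Inhba (2.08 ± 0.26) and Tgfb1 (0.49) were higher. The receptor gene Tgfbr1 stood at 10.61, 11.33 and 10.62 in untreated cells and at 12.62, 12.77 and 12.48 with FoxQ1 siRNA and TGF-b1, higher by 1.77 ± 0.17, and it was above control siRNA with TGF-b1 as well (0.70 ± 0.17). The latent TGF-b binding protein gene Ltbp1 (2.21 ± 0.20), the processing protease gene Bmp1 (2.47 ± 0.17) and the feedback inhibitors Ski (1.77 ± 0.07), Pmepa1 (1.59 ± 0.10) and Skil (1.05) were higher too. Smad7, the inhibitory Smad gene, stood at 8.70, 9.14 and 9.34, at 10.01, 9.73 and 10.27, and at 9.88, 9.61 and 10.18 (0.82 ± 0.19 against untreated cells, adjusted p = 0.0041, or 0.081 with number 1 left out of every group). Id1, Id2 and Id3, targets of the related BMP branch, were lower (-1.80, -1.78 and -1.18).

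**Figure D5:**
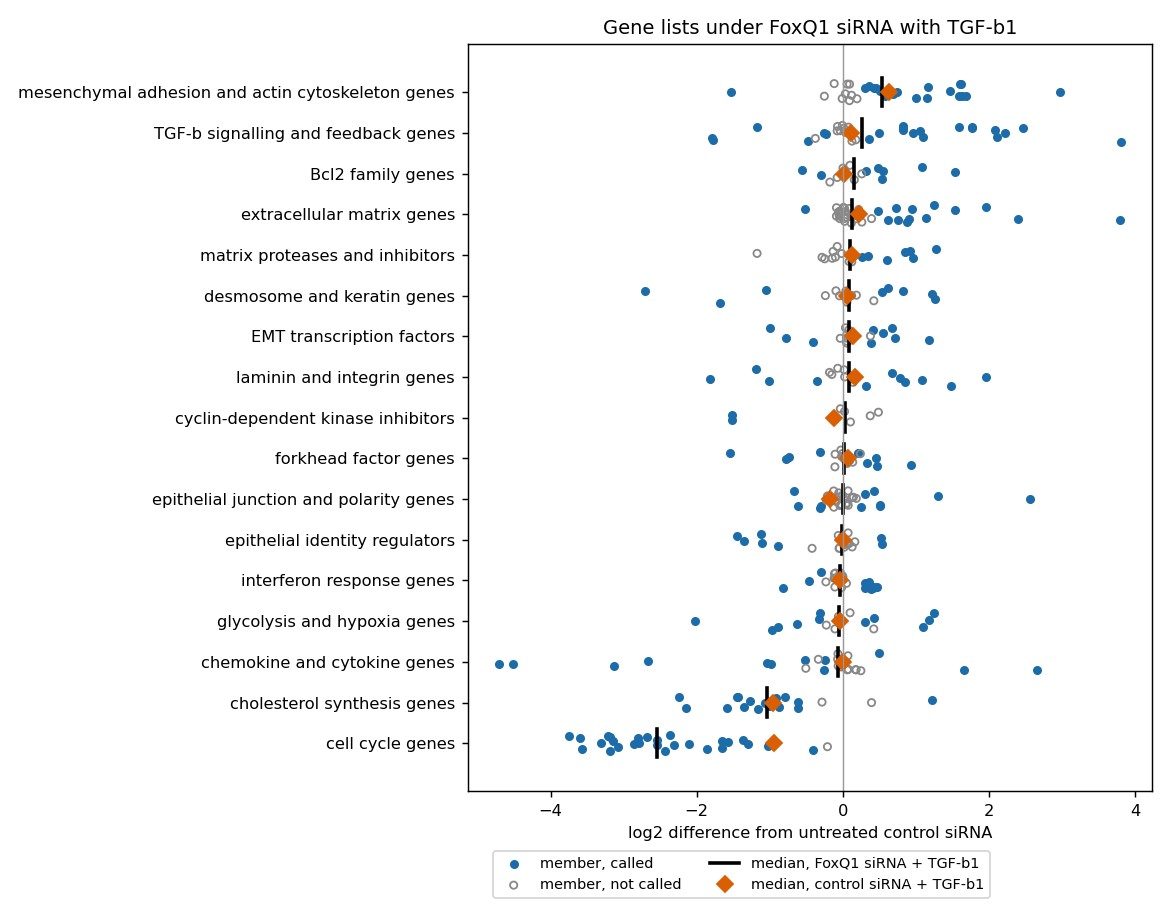
Difference of FoxQ1 siRNA with TGF-b1 from untreated control siRNA (horizontal axis, log2) for each measured member of 17 gene lists, called members filled and others open. The black line is the list median and the orange diamond the median with control siRNA and TGF-b1; cell cycle genes have medians of -2.54 and -0.94, and mesenchymal adhesion and actin genes 0.54 and 0.63.

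Of 24 chemokine and cytokine genes 9 were lower and 3 higher than in untreated cells (18.6% and 19.3% over all genes), with a median of -0.07. Beside Il33, Ccl20 and Cxcl5, Cxcl1 was lower (-2.66), and Ccl7 and Lif were higher (2.65 and 1.65). Cxcl10, an interferon-inducible chemokine gene, stood at 8.38, 7.67 and 7.39 in untreated cells, at 9.25, 8.71 and 8.28 with TGF-b1, and at 7.12, 6.81 and 6.56 with FoxQ1 siRNA and TGF-b1, lower than untreated cells by -0.98 ± 0.27 (adjusted p = 0.0127) although TGF-b1 alone had raised it. Ccl2 stood at 13.58, 13.60 and 13.28, at 13.79, 13.33 and 13.43, and at 12.68, 12.04 and 12.62 (-1.04 ± 0.17).

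Of 18 cholesterol synthesis genes 15 were lower and 1 higher than in untreated cells (18.6% and 19.3% over all genes), with a median of -1.04. TGF-b1 alone lowered 15 (17.5% over all genes), with a median of -0.95. The epoxidase gene Sqle (-1.45), the isomerase gene Idi1 (-2.25 ± 0.32) and the demethylase gene Cyp51 (-2.15 ± 0.29) were among the lower. Cyp51 stood at 10.84, 10.35 and 10.98 in untreated cells, at 9.78, 9.07 and 9.62 with TGF-b1, and at 8.89, 7.82 and 9.01 with FoxQ1 siRNA and TGF-b1. The 1 higher member was the sterol reductase gene Tm7sf2, at 8.76, 8.99 and 9.14, at 8.98, 8.83 and 9.13, and at 10.16, 10.14 and 10.25 (1.22 ± 0.10).

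NMuMG cells, a mouse mammary epithelial line, gave a readout that the sorting did not use: total RNA after 2 h of TGF-b1 at 5 ng/ml, all cultures with 200 µM 4sU, 3 arrays against 3. Of the 12393 genes 349 were called at 2 h (2.82%), 210 higher (1.69%) and 139 lower (1.12%). Over all 18193 genes of the NMuMG table the counts were 266 and 186, or 402 and 299 with a replicate block. Of the 178 genes that rose 2-fold at 40 h in NM18 cells 58 (32.6%) were already higher at 2 h in NMuMG cells, and of the 269 that fell 37 (13.8%) were lower. By class, 37 of the 120 induced genes that remained, 11 of the 21 that were partly back and 7 of the 26 that went further were higher at 2 h. Among repressed genes, 21 of the 121 that remained, 8 of the 32 that were partly back and 3 of the 91 that went further were lower. Cell lines, times and table differ, and differences between classes were not tested.

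Of single genes, Lce1f, Spsb1, Il11 and Lmcd1 were higher at 2 h (3.49, 2.83, 2.41 and 1.95) and Cxcl5, Ccl20 and Hhex lower (-2.90, -1.88 and -1.33). Cdh1 (-0.07), Fn1 (-0.03), Thbs1 (0.24) and Acta1 (0.11) were not called at 2 h, nor were Ccnb2 (-0.15) and Mki67 (-0.01).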

How the data were processed

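The deposited table held log2 values per probe set of the 9 NM18 arrays, normalized by the authors before deposit. That they are log2 was read from their range and is stated nowhere, and the submitters' processing notes name affy 1.18.2 without a role. Of 22690 probe sets, 20380 carried 1 gene symbol, 691 several and 1555 none, and 64 were control probe sets. Each of 12393 genes was read from its single-symbol probe set with the highest mean. limma 3.58.1 in R 4.3.3 (lmFit, eBayes) fitted the 3 groups together, with Benjamini-Hochberg adjustment over all genes. Arrays give no read depth, and 3 per group limit the precision. Same-numbered arrays deviated together (correlations of residuals 0.16 to 0.608 in 9 pairs). The replicate numbers may therefore pair the samples, but the titles only number the arrays and name no shared batch. The main fit did not use these numbers, and blocked values are printed where they change a call. With the block 2839 genes were called higher and 2698 lower than in untreated cells. The script was tested on simulated data. The 12 NMuMG arrays were fitted together in their own table, and the comparison was read from the 6 total RNA arrays. That fit called 266 genes higher and 186 lower over all genes of the NMuMG table. Fitting only the 6 total RNA arrays called 339 and 247. Members and gene lists were chosen with earlier results of these data known.

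Named genes were a fixed set of markers, the 12 largest rises and falls, the 8 largest TGF-b1 changes of each class and 2 to 4 genes per list by smallest p. Others, among them Marveld2, Crb3, Spint2, Csf1, Foxm1, Cxcl10 and Tgfbr1, were chosen after their values were seen. Promoters came from RefSeq. Alternatives were the replicate block, only the arrays compared, quantile normalization, median centring, genes above the median level, the mean of all probe sets, a prior variance with a trend, other fold limits and leaving out arrays.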

Additional observations from a re-analysis of the deposited data

How the results depend on the processing

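Counts of calls kept within 1.5 times of their values under the replicate block, only the arrays compared, quantile normalization, median centring, the mean of all probe sets and a trended prior, with the exceptions given here. The replicate block gave 83 genes partly back and 0 unresolved, and at 2 h in NMuMG cells 402 higher and 299 lower of 18193 genes, against 266 and 186 without it. Quantile normalization and median centring each left 1 gene past the untreated level and 4 unresolved, genes above the median level 5 at the untreated level and 3 unresolved, and the mean of all probe sets 4 unresolved. A narrower limit for the untreated level left 2 genes there.

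With number 1 left out of every group, FoxQ1 siRNA with TGF-b1 against untreated cells called 1520 higher and 1524 lower, TGF-b1 alone 859 and 1184, and the siRNA comparison 445 and 481. Partly back then held 13, back with a wider interval 7, past the untreated level 1, unresolved 39, and outside the TGF-b1 state 206 and 165. With no fold minimum all 3807 TGF-b1 genes were sorted, with 2052 remained, 129 partly back, 393 at the untreated level, 29 back with a wider interval, 64 past it, 680 further and 460 unresolved.

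Leaving out single arrays gave 2027 to 2347 higher and 1952 to 2242 lower genes against untreated cells, 1308 to 1746 and 1713 to 2288 for TGF-b1 alone, and 864 to 1449 and 765 to 1055 between the siRNAs. The classes ranged over 415 to 540 TGF-b1 genes, 220 to 296 remained, 32 to 70 partly back, 6 to 13 at the untreated level, 6 to 30 back with a wider interval, 1 to 3 past it, 102 to 137 further and 6 to 13 unresolved, and the genes outside over 394 to 595 and 238 to 347. At 2 h in NMuMG cells, over the same 18193 genes, the ranges were 178 to 232 and 109 to 142. The arrays that moved a count by over 1.5 times were TGF-b1 array 1 (864 higher between the siRNAs, 32 partly back, 11 back with a wider interval), array 2 (13 at the untreated level) and array 3 (35 partly back), FoxQ1 siRNA array 1 (13 unresolved), array 2 (6 back with a wider interval) and array 3 (30), untreated array 3 (1 past the untreated level), and in NMuMG cells control array 1 (123 lower) and TGF-b1 array 3 (109 lower). The cause was not tested.

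Of 160 genes followed through these settings none reversed a call. Against untreated cells 2599 values kept their side of the threshold, 58 (24 genes) newly passed it and 26 (11 genes) lost it. Between the siRNAs the numbers were 2530, 37 (18 genes) and 116 (43 genes). Beyond the calls given in the text and the genes it resolved, the block newly called Id3, Ifit2, Pmaip1 and Cdkn2a between the siRNAs, and it lost no call of a gene named in the text.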

Other observations

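Of 15 Bcl2 family genes, which set the threshold for apoptosis, 6 were higher and 2 lower under FoxQ1 siRNA with TGF-b1 than in untreated cells (19.3% and 18.6% over all genes), with a median of 0.16. TGF-b1 alone gave 3 higher and 1 lower (13.2% and 17.5% over all genes). Bcl2l11, the gene of the death-promoting protein Bim, stood at 9.24, 9.59 and 9.05 in untreated cells, at 10.13, 10.06 and 10.11 with TGF-b1, and at 10.40, 10.31 and 10.43 with FoxQ1 siRNA and TGF-b1. The untreated arrays were the lowest without overlap, and Bcl2l11 rose by 1.09 ± 0.11 against them, with 0.28 ± 0.11 between the siRNAs (not called). Pmaip1, the gene of the related protein Noxa, rose by 1.54 ± 0.20, and the effector gene Bak1 by 0.54 ± 0.06. The protective gene Bcl2l1 differed by -0.55 ± 0.08 on the probe set used, and its dimmer probe sets were not called (-0.13, 0.03 and -0.07).

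Of 24 interferon response genes 7 were higher and 3 lower than in untreated cells (19.3% and 18.6% over all genes). The list median against untreated cells was -0.04, and 14 of the 24 were not called. TGF-b1 alone gave 1 higher and 3 lower (13.2% and 17.5%), and 5 were higher under FoxQ1 siRNA than under control siRNA (11.3%). Eif2ak2, the gene of the double-stranded RNA sensor PKR, stood at 8.94, 8.60 and 8.64 in untreated cells, at 8.69, 8.57 and 8.78 with TGF-b1, and at 9.18, 9.23 and 9.05 with FoxQ1 siRNA and TGF-b1. The FoxQ1 siRNA arrays were the highest without overlap, at 0.43 ± 0.10 above untreated cells. The RNA sensor gene Ifih1 (0.47), Ifi35 (0.38), Irf9 (0.36) and Oas1a (0.30) were higher by similar amounts, and Ifit2 was among the 3 lower genes (-0.82). Both siRNAs were used at 25 nM, and a response to the siRNA itself was not tested.

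Among 21 forkhead genes 5 were higher and 4 lower than in untreated cells, near the 19.3% and 18.6% over all genes. Foxn2 stood at 9.66, 9.73 and 9.82 in untreated cells, at 8.96, 9.04 and 8.84 with TGF-b1, and at 8.19, 8.16 and 8.26 with FoxQ1 siRNA and TGF-b1, a step down at each comparison (-1.54 ± 0.07 against untreated cells, -0.75 ± 0.07 between the siRNAs). Foxf2 rose by 0.93 ± 0.11 and differed by 0.01 ± 0.11 between the siRNAs. Of 18 glycolysis and hypoxia genes 5 were higher and 6 lower, beside the same shares over all genes. Vegfa, the endothelial growth factor gene, stood at 8.98, 9.50 and 9.67 in untreated cells and at 10.50, 10.49 and 10.69 with FoxQ1 siRNA and TGF-b1, without overlap. The glycolytic gene Hk2 rose by 1.10 ± 0.14 and Pfkfb3 by 1.24 ± 0.19, while the oxygen sensor gene Egln3 differed by -2.02 ± 0.19 and the lactate dehydrogenase gene Ldha by -0.89 ± 0.07.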
